A study of Mus musculus with 18 samples.

Results

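The genes described here encode the machinery of oxidative phosphorylation in mouse skeletal muscle, from both the nuclear and the mitochondrial genome. The rule that chose them goes by symbol alone and uses no measured value, but earlier results of these data were known when it was set. It takes protein-coding genes named Ndufa, Ndufb, Ndufc, Ndufs or Ndufv with a digit, Sdha, Sdhb, Sdhc or Sdhd, and those whose names begin with Uqcr, Cox4, Cox5, Cox6, Cox7, Cox8, Atp5, mt-Nd, mt-Co, mt-Cytb or mt-Atp. The annotation held 102 such gene entries, and 90 of them had counts among the 46725 genes of the deposited tables. The 90 were 84 nuclear and 6 mitochondrial genes. Complex I (NADH dehydrogenase) had 36 members, complex II (succinate dehydrogenase) 4, complex III (cytochrome bc1) 9, complex IV (cytochrome c oxidase) 21 and complex V (ATP synthase) 14. Another 6 were brought in by the same name stems without being core subunits: Sdhaf1, Sdhaf2, Sdhaf3 and Sdhaf4, which help to assemble complex II, Cox7a2l, a factor of respiratory supercomplexes, and Atp5s, a coupling factor. The other 12 entries (Atp5g2, the 2 entries of Atp5o, Ndufb2, Ndufb8, mt-Nd1, mt-Nd2, mt-Nd4, mt-Nd4l, mt-Co3, mt-Atp6 and mt-Atp8) share exon bases on their strand with another gene and were not analysed here.

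As background, complexes I to IV sit in the inner mitochondrial membrane and hand electrons from NADH and succinate to oxygen. Complexes I, III and IV pump protons as they do so, and complex V makes ATP from the gradient. Every complex but complex II joins subunits of both genomes. Slow and fast oxidative fibers are rich in these complexes, fast glycolytic fibers less so, and several small subunits of complex IV have one isoform for striated muscle and another for most other tissues.

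RNA was sequenced from gastrocnemius and quadriceps of the same mice, all of FVB background and 20 weeks old. WT mice and HSA-LR mice were labelled untreated, with saline named as the control injection, and a further group of HSA-LR mice had received Pip6a-PMO by vein, with 3 mice in each group and 18 libraries in all. HSA-LR mice, treated or not, carry a human skeletal actin transgene with long CUG repeats. The transgene is driven in skeletal muscle fibers, so it models the repeat RNA of myotonic dystrophy type 1 in that cell type alone. Pip6a-PMO is a morpholino antisense to the repeats joined to a cell-penetrating peptide.

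Libraries held 98916844 to 143135976 counts in exon bins. Treated gastrocnemius 3 stood apart. Its log2 ratio of 5' to 3' coverage was -1.51, against -1.25 to -1.13 in the other 17 libraries, and its summed erythroid markers reached 3152 normalized CPM. WT gastrocnemius 1 had the highest erythroid sum, 3867 normalized CPM. WT quadriceps 1 and HSA-LR quadriceps 1 and 2 had brown adipocyte marker sums of 307, 99.8 and 287 normalized CPM, against at most 39.7 in the other 15 libraries. These 3 are called the libraries with brown adipocyte markers below. WT quadriceps 2 and 3 also held such markers, at 23.6 and 39.7. HSA-LR quadriceps 3 was at 0.585 and treated quadriceps at 0.681 to 2.18. By its labels WT mouse 2 is female and all other mice are male, but summed Y-linked genes were at 153 and 188 normalized CPM in the libraries labelled WT 2 and at 1.14 and 1.43 in those labelled WT 3, so results are given below without either mouse where they depended on it. Markers of fast fibers were the most abundant fiber markers in every library, at 111700 to 203200 normalized CPM, and slow fiber markers reached 16820 in treated gastrocnemius 1 against at most 6156 elsewhere. In whole-muscle RNA, fewer cells or fibers of a type and less RNA per cell cannot be told apart.

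Between 4.866% and 7.523% of all counts fell on the members, and 1.954% to 3.907% on the 6 mitochondrial genes among them. Summed plain CPM (a gene's counts scaled to the library's total over genes) of the 78 nuclear subunits lay between 26518 and 36263 in all 18 libraries. In gastrocnemius they were 31320 ± 4590 in WT (SD, n = 3), 32310 ± 1020 in HSA-LR and 29900 ± 2480 in treated mice. In quadriceps the corresponding sums were 32710 ± 3290, 32240 ± 1160 and 30990 ± 2280. HSA-LR stood at 1.03 times WT in gastrocnemius and 0.986 times in quadriceps, with overlapping ranges in both muscles. The widest spread was within WT gastrocnemius, from 26518 in mouse 1 to 35663 in mouse 3.

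Of the 13 mitochondrial genes in the annotation only 6 had counts, so the balance of the 2 genomes is not given here. Together these 6 genes were about as abundant as the counted nuclear subunits. Their summed CPM was 33850 ± 5110 in WT gastrocnemius (SD, n = 3), 33950 ± 1310 in HSA-LR and 27910 ± 7930 after treatment. The low mean of the treated group came from mouse 3, the library with the 3'-shifted coverage, at 19540 against 35313 and 28867 in mice 1 and 2. Quadriceps held 35150 ± 3210, 33200 ± 2440 and 34020 ± 3600. Complex by complex, the ranges of HSA-LR and WT overlapped in each of the 8 sums and in both muscles, with ratios from 0.904 for mitochondrial complex IV in quadriceps to 1.09 for mitochondrial complex I in gastrocnemius. Between treated and HSA-LR mice the ranges separated for 1 sum, nuclear complex III in gastrocnemius, at 3337 ± 291 against 3779 ± 127 (SD, n = 3). These sums are in plain CPM, and the tests below scale libraries in another way. There the same 8 genes had a median log2 difference of 0.0175 (5 positive, 3 negative), so the direction depended on the scaling. With 3 mice a group an exact permutation test cannot go below p = 0.1, so no p is given for single sums.

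**Figure D1:**
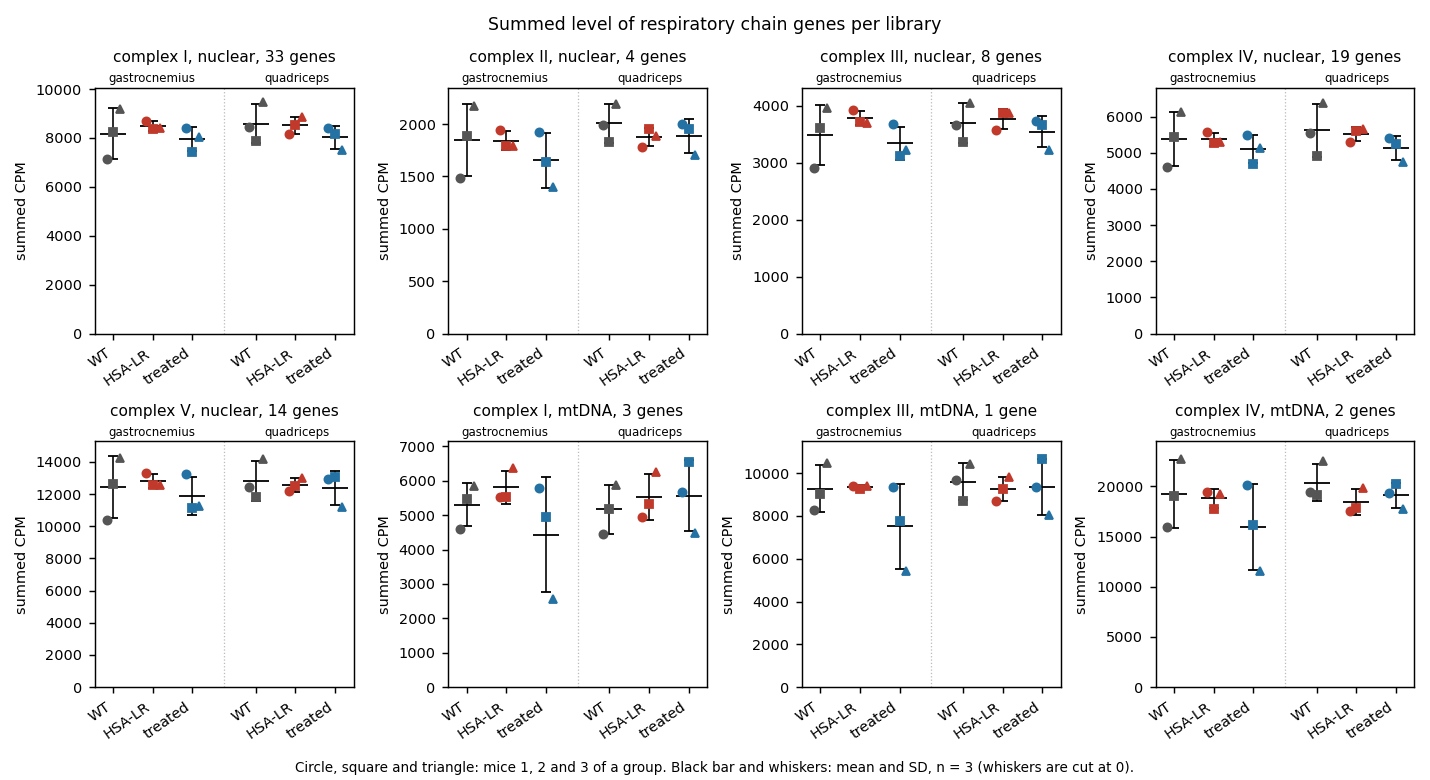
Summed plain CPM (y axis, over all counted genes) of the subunits of each complex and genome, by group and muscle. Circles, squares and triangles are mice 1, 2 and 3, and bars with whiskers are mean ± SD (n = 3). The groups overlap in nearly every sum, and treated gastrocnemius 3 lies lowest for the mitochondrial genes.

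Per kilobase of annotated exon, levels ran over more than 5 orders of magnitude. Means over the 18 libraries were 12000 normalized CPM per kb for mt-Co1, the catalytic subunit of complex IV, 7890 for mt-Cytb, the cytochrome b of complex III, and 2870 for mt-Nd5, a proton-pumping subunit of complex I. The most abundant nuclear members were Atp5a1 at 1010, Cox6a2 at 1000 and Atp5b at 973 normalized CPM per kb. Atp5a1 and Atp5b encode the alpha and beta subunits of the ATP synthase head. At the other end, Cox8c had no count in any library and the testis isoform Cox7b2 had 0 to 3 counts. These 2 genes failed the filter on low counts, and the other 88 members were tested in every comparison.

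The first comparison asked what the repeat transgene does to these genes. In gastrocnemius 4 of 88 members passed adjusted p under 0.1 (4.55%), against 15.5% of the 15625 genes tested. Cox8b and Cox6a2, the muscle isoforms of 2 complex IV subunits, fell, and Cox7a2l and mt-Nd3 rose. In quadriceps 6 of 88 members passed (6.82%), against 20.3% of 15574 genes. The quadriceps count moved to between 1 (without WT mouse 3 or HSA-LR mouse 1) and 15 (without HSA-LR mouse 3) when 1 mouse was left out, being 3 without WT mouse 1, and DESeq2 called 12. The gastrocnemius count moved to between 2 (without WT mouse 2 or HSA-LR mouse 1) and 8 (without treated mouse 3). All 6 members called in quadriceps fell: Cox8b, Ndufv1, Ndufv3 and Ndufs8 of complex I, Sdha of complex II and Sdhaf2. Over all genes, the share called was 8.6% higher and 6.94% lower in gastrocnemius, and 11% higher and 9.31% lower in quadriceps. No test was made of the difference between the shares of members and of all genes.

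The sizes of the differences were small too. The median absolute log2 fold change of the members was 0.0704 in gastrocnemius and 0.146 in quadriceps, against 0.221 and 0.238 over all genes tested. The median standard error of a member was 0.115 and 0.107. For 81 members in gastrocnemius and 77 in quadriceps, the 95% confidence interval of the difference lay within 1.5-fold in either direction. A change beyond 1.5-fold was thus outside the interval for most members. WT and HSA-LR mice did not overlap for 13 members in gastrocnemius (6 higher, 7 lower in HSA-LR) and 17 in quadriceps (1 higher, 16 lower), where 36.2% and 33.2% of all genes were separated in this way.

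The direction of the bulk of members depended on the scaling. Trimmed mean of M-values (TMM) factors moved the comparison of HSA-LR with WT by 0.0766 in gastrocnemius and 0.119 in quadriceps on the log2 scale, relative to library totals. With TMM the median log2 fold change of members was -0.0397 in gastrocnemius (35 members positive, 53 negative), where that of all genes was -0.00999. In quadriceps it was -0.0942 (20 positive, 68 negative), where that of all genes was 0.00532. With library totals alone, an alternative added after seeing the data, the medians were 0.0352 (63 positive, 25 negative) and 0.0206 (45 positive, 43 negative), beside 0.0664 and 0.126 for all genes. Under both scalings the members' median was below that of all genes. It also depended on single mice. Without WT gastrocnemius 3 the gastrocnemius median was 0.0665 (65 positive, 23 negative), above the -0.000192 of all genes, and without WT gastrocnemius 1 it was -0.116. Without WT quadriceps 3 the quadriceps median was -0.0395 (36 positive, 52 negative).

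**Figure D2:**
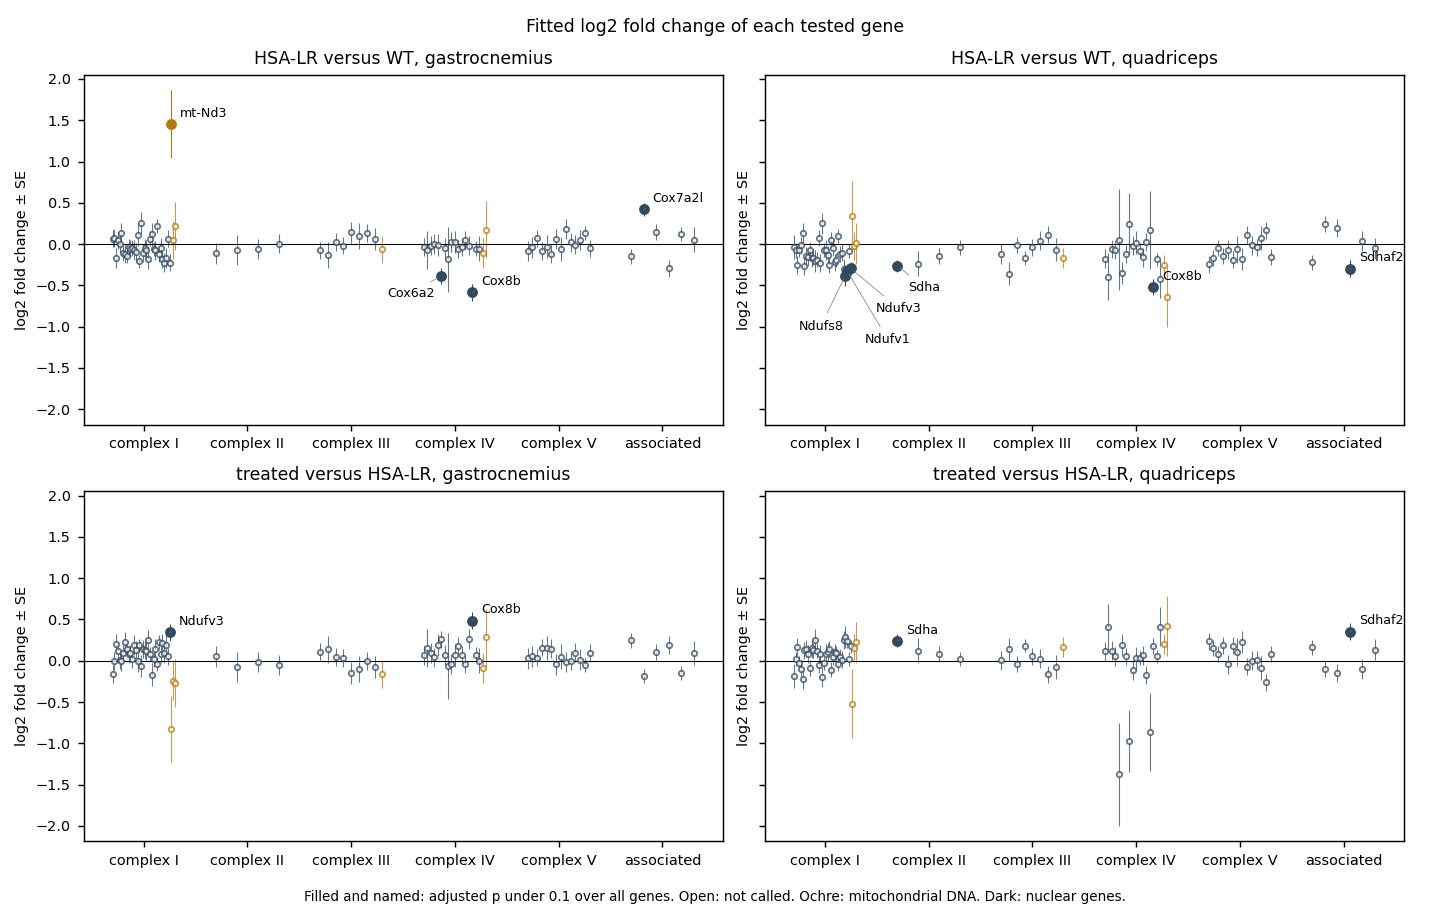
log2 fold change of each tested member (y axis) with its standard error (bars) by complex (x axis), for HSA-LR versus WT and treated versus HSA-LR in both muscles. Filled, named points passed adjusted p under 0.1 in edgeR, ochre marks mitochondrial genes and dark marks nuclear genes. Most members lie close to 0, and Cox8b is the lowest called member in both comparisons of HSA-LR with WT.

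Cox8b encodes the muscle form of a small nuclear subunit of cytochrome c oxidase, and in mice it is also made by brown adipocytes. The gene (ENSMUSG00000025488.9) lies on GRCm38 chr7:140898945-140900446, minus strand. In gastrocnemius its normalized CPM was 132, 145 and 143 in WT mice 1 to 3, 100, 90.6 and 91.3 in HSA-LR mice, and 134, 114 and 145 in treated mice. All HSA-LR mice lay below all WT and all treated mice. The difference between HSA-LR and WT was -0.58 on the log2 scale (SE 0.0989, 33.3% lower, edgeR adjusted p = 0.00706), and that between treated and HSA-LR was 0.49 (SE 0.0988, adjusted p = 0.0262). The lower level in HSA-LR held without any single mouse, at -0.64 to -0.56. The treatment difference held without treated gastrocnemius 3 and was lost without HSA-LR mouse 2 (0.46, adjusted p = 0.118).

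Quadriceps showed the same order of WT and HSA-LR. Cox8b stood at 142, 128 and 154 normalized CPM in WT, 89.3, 101 and 104 in HSA-LR, and 118, 104 and 110 in treated mice. HSA-LR was again below WT in 3 of 3 mice, by 0.52 on the log2 scale (SE 0.1, edgeR adjusted p = 0.0107). This call also held without any single mouse (-0.59 to -0.45), but not without the 3 libraries with brown adipocyte markers, which leaves 2 WT and 1 HSA-LR library (-0.43, adjusted p = 0.251). Treated mice differed from HSA-LR by 0.18 in quadriceps (adjusted p = 0.29). The test of whether the treatment effect differed between muscles gave 0.31 for Cox8b with unadjusted p = 0.0397 and adjusted p = 0.63 in edgeR, so a difference between muscles was not shown.

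The 250 bases upstream of the RefSeq start of Cox8b are shown with those of its ubiquitous counterpart Cox8a, and of Cox6a1, the ubiquitous counterpart of Cox6a2, because the muscle and ubiquitous forms differed in their behavior below. Capitals mark matches on either strand to the E-box CANNTG, the NRF1 motif GCGCNTGCG, the ERR motif AAGGTCA, the GABPA motif CCGGAAG or the MEF2 motif, and the first 2 of 3 NRF1 matches of Cox6a1 overlap each other. All 3 lie on the minus strand of GRCm38.p6, Cox8b at chr7:140900447-140900696, Cox8a at chr19:7217617-7217866 and Cox6a1 at chr5:115348959-115349208.
Cox8b: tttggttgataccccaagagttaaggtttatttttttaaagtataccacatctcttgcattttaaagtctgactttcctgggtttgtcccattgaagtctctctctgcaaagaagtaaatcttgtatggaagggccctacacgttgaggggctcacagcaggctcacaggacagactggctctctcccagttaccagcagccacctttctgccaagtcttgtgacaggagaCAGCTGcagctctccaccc
Cox8a: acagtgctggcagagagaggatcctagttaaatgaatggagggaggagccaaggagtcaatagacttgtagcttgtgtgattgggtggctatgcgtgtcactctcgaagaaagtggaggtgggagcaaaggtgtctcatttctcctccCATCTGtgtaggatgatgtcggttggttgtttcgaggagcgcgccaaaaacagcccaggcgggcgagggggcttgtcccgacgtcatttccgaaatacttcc
Cox6a1: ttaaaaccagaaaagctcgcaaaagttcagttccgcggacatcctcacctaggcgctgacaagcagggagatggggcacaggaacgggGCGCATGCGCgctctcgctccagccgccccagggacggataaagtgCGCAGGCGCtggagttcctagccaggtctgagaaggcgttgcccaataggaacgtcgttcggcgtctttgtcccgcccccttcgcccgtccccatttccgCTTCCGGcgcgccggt
Cox8b held 1 E-box, bound by myogenic factors among others, at 19 bases before the start, and Cox8a held 1 at 102 bases. Cox6a1 held 3 matches to the motif of NRF1, a factor of many nuclear respiratory genes, of which 2 overlap and 1 stands apart at 116 bases before the start, and 1 GABPA match. Of the 84 nuclear members 68 had a promoter in the RefSeq table. Among these 68, NRF1 matches stood in 20.6%, against 5.4% of all 27018 promoters, and GABPA matches in 19.1% against 7.05%. E-boxes were in 63.2% against 66.1%, ERR motifs in 5.88% against 4.05%, and MEF2 motifs in 0.0% against 0.518%. A match is a description of the letters and not a site.

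Cox6a2, the muscle isoform of subunit VIa of complex IV (ENSMUSG00000030785.8, chr7:128205435-128206387), had a similar pattern. Gastrocnemius levels were 691, 745 and 806 normalized CPM in WT, 599, 555 and 577 in HSA-LR, and 677, 628 and 756 in treated mice. HSA-LR lay below the other groups in 3 of 3 mice. It fell by 0.38 on the log2 scale against WT (SE 0.1, edgeR adjusted p = 0.0408), and the treated mice differed from HSA-LR by 0.26 (adjusted p = 0.168). The call was lost without WT mouse 2 (adjusted p = 0.115) and without HSA-LR mouse 1, 2 or 3 (0.103, 0.145 and 0.127 in edgeR). In quadriceps Cox6a2 stood at 708, 719 and 897 in WT, 577, 552 and 694 in HSA-LR, and 731, 636 and 706 in treated mice. The WT and HSA-LR ranges did not overlap, but the difference of -0.35 did not pass the test (SE 0.128, adjusted p = 0.108).

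The remaining muscle isoform, Cox7a1, gave no such difference. Its levels were 156 to 232 normalized CPM in gastrocnemius and 217 to 298 in quadriceps, and HSA-LR differed from WT by 0.02 in gastrocnemius (95% interval -0.28 to 0.328). The 17 tested nuclear subunits of complex IV had a median log2 fold change of -0.0376 in gastrocnemius (4 positive, 13 negative, 2 called) and -0.0807 in quadriceps (5 positive, 12 negative, 1 called).

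**Figure D3:**
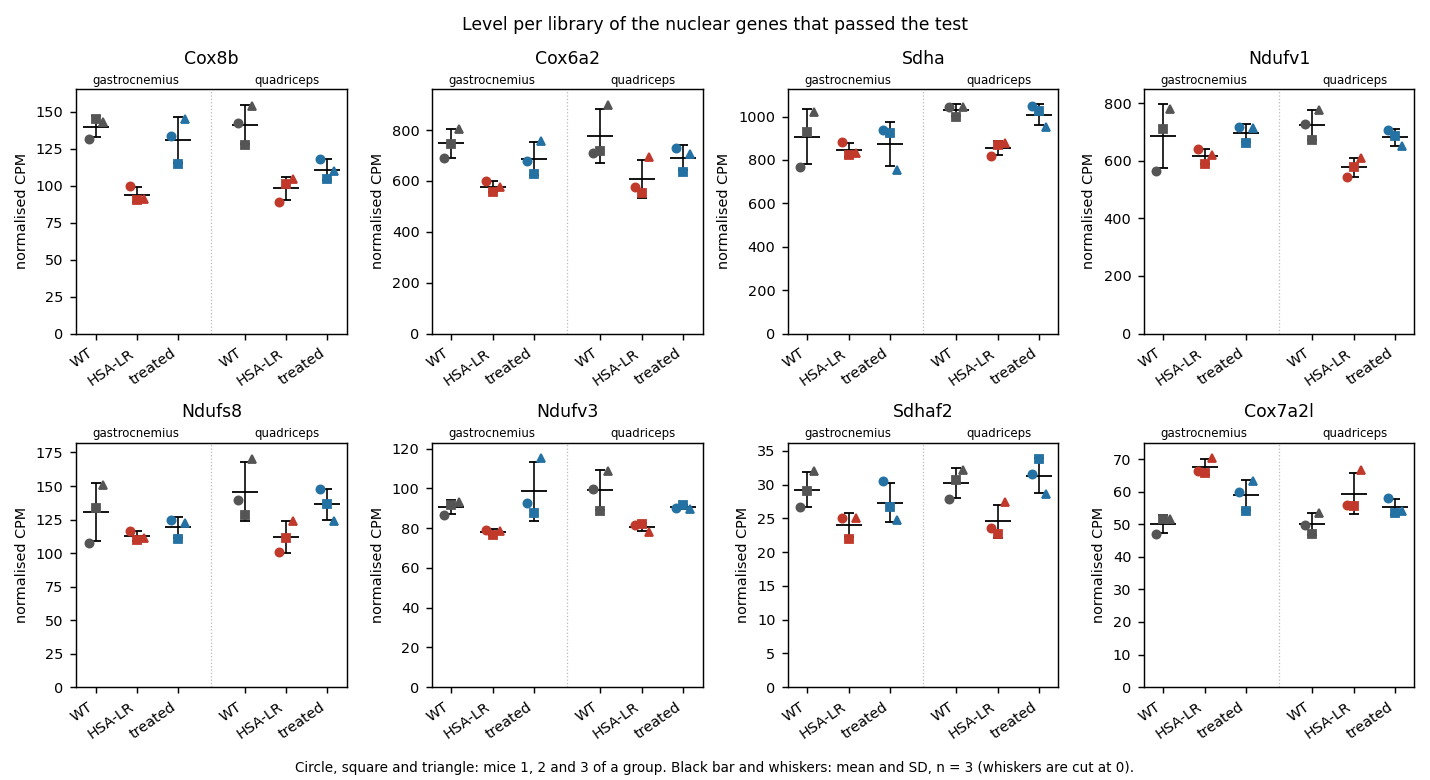
Normalized CPM (y axis) of 8 called members in every library, by group and muscle. Circles, squares and triangles are mice 1, 2 and 3, and bars with whiskers are mean ± SD (n = 3). Cox8b is lower in each HSA-LR mouse than in each WT mouse in both muscles.

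Per length, the muscle or main isoform took most of each pair in all 18 libraries. Cox4i1 made up 99.51% to 99.76% of Cox4i1 plus Cox4i2, Cox6b1 99.81% to 99.94% of Cox6b1 plus Cox6b2, and Ndufa4 99.04% to 99.5% of Ndufa4 plus Ndufa4l2. Cox4i2 and Ndufa4l2 are known as forms induced by low oxygen, and Cox6b2 as a testis form. Atp5g3 held 73.19% to 76.73% of Atp5g3 plus Atp5g1, which encode the same ring subunit of complex V. Cox7a1 held 69.74% to 77.91% of Cox7a1 plus Cox7a2.

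The remaining 2 pairs varied more. Cox8b was 93.95%, 93.57% and 92.98% of Cox8b plus Cox8a in WT gastrocnemius, 90.68%, 90.23% and 91.05% in HSA-LR and 91.37%, 91.86% and 92.37% in treated mice. The WT shares were the highest, with no overlap with either other group. In quadriceps the share was 82.48% in WT mouse 1 and 81.87% and 77.29% in HSA-LR mice 1 and 2, and 89.68% or more in the other 6 libraries. Cox6a2 as a share of Cox6a2 plus Cox6a1 was likewise 90.14%, 93.61% and 88.52% in those 3 libraries and 97.08% or more in the other 15. These are the 3 libraries with the highest brown adipocyte marker sums.

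The ubiquitous forms differed between the same libraries. Cox6a1 in quadriceps was 80, 20.2 and 24.8 normalized CPM in WT, 40.6, 73.9 and 14.7 in HSA-LR, and 17.4, 18.9 and 13.4 in treated mice, and in gastrocnemius it was 15.4 to 23.5. Cox8a in quadriceps was 52, 17.2 and 20.6 in WT, 34, 51.2 and 15.9 in HSA-LR, and 19.6, 20.7 and 15.3 in treated mice. Both genes were highest in WT quadriceps 1 and HSA-LR quadriceps 1 and 2. Ucp1, the defining uncoupling protein of brown adipocytes, was at 195.8, 61.87 and 187.7 normalized CPM in these libraries. The part of brown adipocytes in the isoform levels was not tested. No comparison called Cox6a1 or Cox8a. Between WT gastrocnemius and quadriceps Cox6a1 differed by -1.27 (unadjusted p = 0.0198 and adjusted p = 0.424 in edgeR).

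**Figure D4:**
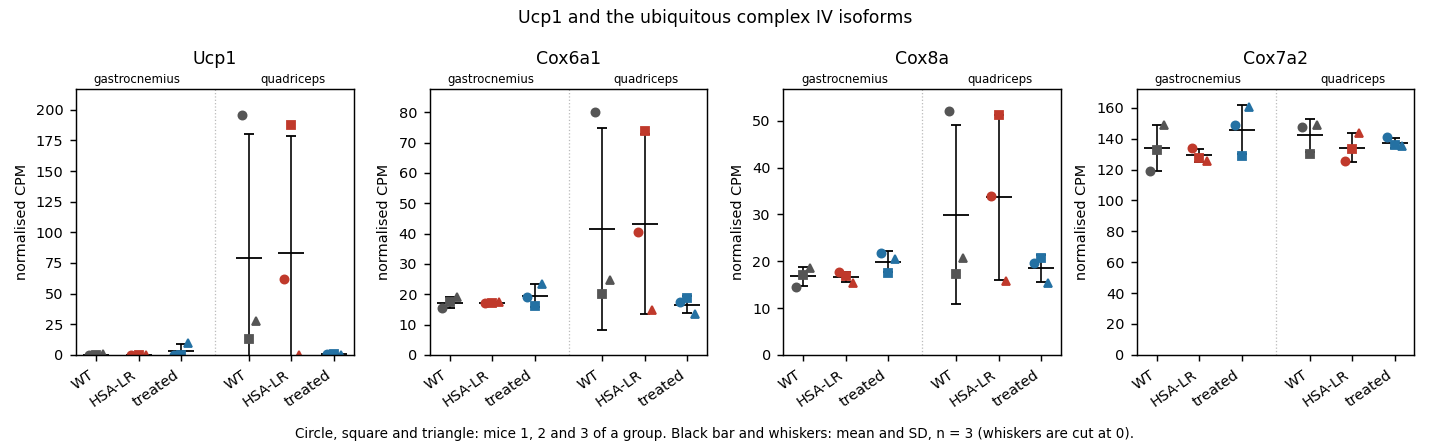
Normalized CPM (y axis) of Ucp1, Cox6a1, Cox8a and Cox7a2 in every library, by group and muscle. Circles, squares and triangles are mice 1, 2 and 3, and bars with whiskers are mean ± SD (n = 3, whiskers cut at 0). WT quadriceps 1 and HSA-LR quadriceps 1 and 2 stand above the rest for Ucp1, Cox6a1 and Cox8a, while Cox7a2 stays between 119 and 160 in all 18 libraries.

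Complex I carried 3 of the 6 quadriceps calls. Ndufv1, which binds NADH and passes its electrons on (chr19:4007384-4012806), was at 729, 671 and 777 normalized CPM in WT quadriceps, 546, 577 and 610 in HSA-LR, and 707, 687 and 650 in treated mice. HSA-LR lay below both other groups in 3 of 3 mice. Ndufv1 fell by 0.33 against WT (SE 0.0864, edgeR adjusted p = 0.0372), a call lost without WT mouse 3 (adjusted p = 0.11) or HSA-LR mouse 1 (0.118). Treated mice differed from HSA-LR by 0.24 (adjusted p = 0.122).

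Ndufs8 and Ndufv3 showed the same order. Ndufs8, an iron-sulfur subunit (chr19:3908863-3912774), was at 139, 128 and 170 normalized CPM in WT quadriceps, 101, 111 and 124 in HSA-LR, and 148, 137 and 124 in treated mice. It fell by 0.38 (SE 0.128, edgeR adjusted p = 0.0846). The call, but not the direction, was lost without WT mouse 1 or 3, HSA-LR mouse 1 or 2, or treated mouse 1 (adjusted p = 0.111 to 0.233). Ndufv3, a small accessory subunit (chr17:31520115-31531331), was at 99.8, 88.8 and 109 in WT quadriceps, 81.6, 82.1 and 78.1 in HSA-LR, and 90.2, 91.8 and 89.8 in treated mice. It fell by 0.30 (SE 0.083, edgeR adjusted p = 0.0463), a call lost without WT mouse 1 or 3 or HSA-LR mouse 1 or 3 (adjusted p = 0.105 to 0.131). Over the 33 nuclear members of complex I the median was -0.128 in quadriceps (5 positive, 28 negative) and -0.0601 in gastrocnemius (11 positive, 22 negative, 0 called in edgeR and 2 at unadjusted p under 0.05).

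Complex II, the only complex without mitochondrial subunits, had 1 called subunit. Sdha, the flavoprotein that oxidizes succinate (chr13:74322254-74350280), was at 1046, 998 and 1043 normalized CPM in WT quadriceps, 816, 871 and 879 in HSA-LR, and 1048, 1025 and 953 in treated mice. HSA-LR mice lay below all 6 others. Sdha fell by 0.26 against WT (SE 0.0764, edgeR adjusted p = 0.0514) and rose by 0.24 with treatment (adjusted p = 0.0894). The first call was lost without WT mouse 1 or 3 or HSA-LR mouse 1 (adjusted p = 0.125 to 0.156), and the second in 7 of the 9 analyses that left out 1 mouse (0.101 to 0.263). In gastrocnemius Sdha differed by -0.11 (adjusted p = 0.644).

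Sdhaf2, which attaches FAD to Sdha (chr19:10500534-10526142), moved with it. Quadriceps levels were 27.8, 30.7 and 32.2 normalized CPM in WT, 23.6, 22.7 and 27.4 in HSA-LR, and 31.6, 33.8 and 28.6 in treated mice. It fell by 0.30 against WT (SE 0.105, edgeR adjusted p = 0.0953) and rose by 0.35 with treatment (SE 0.105, adjusted p = 0.076). The first call ended when WT mouse 2 or 3, HSA-LR mouse 1 or 2 or treated mouse 1 was left out (adjusted p = 0.14 to 0.24), and the second without HSA-LR mouse 1 or 2 or treated mouse 1 or 2 (0.184 to 0.219).

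Most of the quadriceps calls depended on the scaling. With library totals alone, 5 members were called (4 higher, 1 lower) against 22.7% of all genes, and 1 of them, Cox8b, was shared with the 6 above (-0.41, adjusted p = 0.0281). In gastrocnemius that scaling gave 5 calls (3 higher, 2 lower), including all 4 above. Without the 3 libraries with brown adipocyte markers 1 HSA-LR library is left, assumed to vary like the others. Then 0 members were called in edgeR, against 4.72% of all genes, and the members' median was 0.00744 (47 positive, 41 negative). The 6 above kept their sign, with Cox8b at -0.43, Ndufv3 at -0.33, Ndufs8 at -0.26, Ndufv1 at -0.24, Sdha at -0.21 and Sdhaf2 at -0.19. All but Ndufv3 were smaller in size than in the full fit. The 2 WT libraries left in that fit had brown adipocyte sums of 23.6 and 39.7 normalized CPM, against 0.585 in the HSA-LR library left. The part of those 3 libraries, and of brown adipocytes in the others, in the quadriceps calls was not tested. Adding the replicate number as a block gave 8 calls, of which 4 were shared. Myh2, the myosin of fast oxidative fibers, was at 1301, 1287 and 1976 normalized CPM in WT quadriceps, 602, 391.6 and 396 in HSA-LR and 2721, 3554 and 965 after treatment. HSA-LR quadriceps thus held the lowest Myh2 levels of the 3 groups, while in gastrocnemius the ranges overlapped (824 to 4234 in WT, 1415 to 2835 in HSA-LR). The sums of fast fiber and endothelial markers were low there too. The 7 fast fiber markers summed to 111700 to 131300 normalized CPM in HSA-LR quadriceps, 135400 to 162400 in WT and 136100 to 172600 after treatment, and the 4 endothelial markers to 127 to 163, 193 to 247 and 140 to 219. Not every fast fiber marker went that way. Tnnt3 (22720 to 25680 in HSA-LR quadriceps, 36850 to 41240 in WT), Tnni2 and Actn3 lay below WT. The ranges of Myh4, Mylpf and Pvalb overlapped those of WT. Myh1 was at 5309, 8285 and 13930 in HSA-LR quadriceps, 4419, 4051 and 5931 in WT, and 6119, 7555 and 4348 after treatment. Macrophage markers summed higher in HSA-LR quadriceps, at 55.02 to 68.04 against 26.51 to 43.55 in WT. The part of fiber types and other cells in the quadriceps calls was not tested.

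In edgeR 0 nuclear subunits of complexes III and V were called in either muscle, with 0 at unadjusted p under 0.05 in gastrocnemius and 1 of each complex in quadriceps. Limma voom called the same number of members as edgeR in both muscles, and DESeq2 1 more in gastrocnemius (5) and 6 more in quadriceps (12). The 8 nuclear members of complex III had medians of 0.0432 in gastrocnemius and -0.0538 in quadriceps, and the 14 members of complex V medians of -0.0179 and -0.0676. Atp5a1 differed by -0.08 in gastrocnemius (95% interval -0.359 to 0.196) and Atp5b by -0.04 (-0.328 to 0.246), with both intervals inside 1.5-fold. In quadriceps Atp5a1 was at 3223, 3171 and 3625 normalized CPM in WT and 2709, 2668 and 3069 in HSA-LR. These ranges did not overlap, as for 33.2% of all genes, and Atp5a1 was not called. Quadriceps levels of Atp5b overlapped, at 4226, 4120 and 4739 in WT and 3690, 3779 and 4176 in HSA-LR.

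Cox7a2l, which helps complexes III and IV to join in supercomplexes (chr17:83501918-83517330), rose in gastrocnemius. Its normalized CPM was 47, 51.7 and 51.6 in WT, 66.5, 65.7 and 70.3 in HSA-LR, and 59.9, 54 and 63.2 in treated mice. The 3 groups were separate, with treated mice between WT and HSA-LR. The difference between HSA-LR and WT was 0.42 (SE 0.0824, 33.8% higher, edgeR adjusted p = 0.013), and it was called without any single mouse (0.38 to 0.44). Between treated and HSA-LR mice it was -0.19 (adjusted p = 0.226). In quadriceps Cox7a2l was at 49.9, 46.9 and 53.6 in WT, 55.9, 55.6 and 66.7 in HSA-LR, and 58, 53.6 and 54.1 in treated mice, a difference of 0.25 between HSA-LR and WT that did not pass the test (adjusted p = 0.13). A near-identical copy, Gm6969 (97.95% identity), held 20.5% of the counts of both genes together, and adding its counts kept the call (0.43, adjusted p = 0.0114).

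The mitochondrial genes are read from polycistronic transcripts of a circular genome, so their levels are not set gene by gene at a promoter. In gastrocnemius mt-Co1 was at 16180, 18910 and 22390 normalized CPM in WT, 18390, 16680 and 18540 in HSA-LR, and 20020, 17150 and 12880 in treated mice. Quadriceps levels were 19370, 19700 and 22230, then 16040, 15700 and 19570, then 19630, 20160 and 19050. The groups overlapped in gastrocnemius, and in quadriceps 2 HSA-LR mice lay below all others while the other lay between the WT mice. HSA-LR differed from WT by -0.11 in gastrocnemius (edgeR adjusted p = 0.762) and -0.25 in quadriceps (adjusted p = 0.205).

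mt-Cytb was at 8440, 9003 and 10370 normalized CPM in WT gastrocnemius, 8924, 8757 and 9139 in HSA-LR, and 9347, 8366 and 6105 in treated mice. mt-Nd5 ran from 2845 to 6507, and mt-Nd6, the one member on the other strand, from 24.8 to 67.6. The lowest mt-Co1, mt-Cytb and mt-Nd5 levels of all 18 libraries were in treated gastrocnemius 3. None of these 4 genes was called in edgeR in any comparison.

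The values of 2 mitochondrial genes are uncertain because near-identical copies stand elsewhere in the annotation. mt-Nd3, a subunit of complex I, was at 4.46, 5.78 and 6.42 normalized CPM in WT gastrocnemius, 26.7, 7.9 and 11.4 in HSA-LR, and 8.37, 6.25 and 11.2 in treated mice. It was called higher in HSA-LR (1.45, SE 0.408, edgeR adjusted p = 0.0533), but HSA-LR mouse 1 stood far above the rest. Without that mouse the difference was 0.78 (adjusted p = 0.149), and the call was also lost without WT mouse 1 (0.154) or 2 (0.131). The copy Gm28438 held 64.1% of the counts of both, and with its counts added the difference was 0.79 (adjusted p = 0.0221). mt-Co2, a catalytic subunit of complex IV, ran from 86 to 308 normalized CPM with no call in edgeR, and its copy Gm28661, identical over the aligned bases, held 52.8% of the counts of both.

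Treatment was compared with untreated HSA-LR mice next, so both sets of differences share the HSA-LR libraries. In gastrocnemius 2 of 88 members passed (2.27%), against 10% of all genes (4.49% higher, 5.53% lower). Both rose, Cox8b as given above and Ndufv3, which was at 79, 76.5 and 78.5 normalized CPM in HSA-LR and 92.8, 87.4 and 115 in treated mice (0.34, SE 0.103, edgeR adjusted p = 0.0892). The Ndufv3 call was lost in 7 of 9 analyses without 1 mouse (adjusted p = 0.109 to 0.252), among them that without treated mouse 3 (0.21, adjusted p = 0.109). In quadriceps 2 of 88 members passed (2.27%), against 13.8% of all genes (6.54% higher, 7.22% lower), and both rose, namely Sdha and Sdhaf2. With 1 mouse left out the gastrocnemius count ran from 0 (without HSA-LR mouse 2) to 2, being 1 without WT mouse 1 or 2, HSA-LR mouse 1 or 3 or treated mouse 1 or 3. The quadriceps count ran from 0 (without HSA-LR mouse 1 or 2 or treated mouse 1 or 2) to 9 (without HSA-LR mouse 3), being 1 without WT mouse 1, 2 or 3. HSA-LR and treated mice did not overlap for 17 members in gastrocnemius (14 higher after treatment, 3 lower) and 14 in quadriceps (9 higher, 5 lower), where 29.3% and 31.9% of all genes were separated.

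The scaling mattered more here. TMM factors of treated and HSA-LR libraries differed by -0.163 in gastrocnemius and -0.159 in quadriceps on the log2 scale. With TMM the median member difference was 0.0673 in gastrocnemius (63 positive, 25 negative) and 0.0771 in quadriceps (61 positive, 27 negative), with all genes at -0.00435 and -0.01. With library totals alone it was -0.0951 (18 positive, 70 negative) and -0.0798 (24 positive, 64 negative), with all genes at -0.166 and -0.169. Under that scaling 3 members were called in gastrocnemius (1 higher, 2 lower, Cox8b among them) and 10 in quadriceps, all lower and none of them Sdha or Sdhaf2, beside 14.2% and 21.5% of all genes. The direction of most members after treatment thus turned with the scaling, while their median stayed above that of all genes under both. Without treated gastrocnemius 3 the gastrocnemius median was 0.0103 (50 positive, 38 negative), and without the 3 quadriceps libraries with brown adipocyte markers the quadriceps median was -0.0919 (24 positive, 64 negative). That fit has 1 HSA-LR library, and edgeR called 0 members and 0.678% of all genes in it, with Sdha at 0.19 and Sdhaf2 at 0.18.

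Treated mice were then set beside WT mice. In edgeR 0 of 88 members passed in either muscle, where 1.04% of all genes passed in gastrocnemius and 1.41% in quadriceps. At unadjusted p under 0.05 there were 2 members in gastrocnemius and 1 in quadriceps, limma voom called 0 in both, and DESeq2 called 0 and 1, the latter being Cox8b in quadriceps (-0.35, adjusted p = 0.0539). In edgeR Cox8b differed from WT by -0.10 in gastrocnemius (adjusted p = 0.797) and -0.34 in quadriceps (adjusted p = 0.212). Its quadriceps levels of 104 to 118 normalized CPM after treatment lay below the 128 to 154 of WT. Brown adipocyte marker sums were lower in treated quadriceps too, at 0.681 to 2.18 against 23.6 to 307 in WT, and their part was not tested. The nearest members in gastrocnemius were Cox7a2l (0.23, adjusted p = 0.347), Sdhaf1 (0.26, adjusted p = 0.395) and Cox8a (0.25, adjusted p = 0.521), and in quadriceps, after Cox8b, Cox6a1 (-1.32, adjusted p = 0.421) and Cox6b2 (-0.72, adjusted p = 0.466). For 80 members in gastrocnemius and 81 in quadriceps the 95% interval lay within 1.5-fold. The median difference was 0.0351 in gastrocnemius (61 positive, 27 negative) and -0.0564 in quadriceps (24 positive, 64 negative). With library totals alone it was -0.0529 (27 positive, 61 negative) and -0.096 (14 positive, 74 negative). Single WT mice turned both directions, at -0.0486 without WT gastrocnemius 1 and 0.0297 without WT quadriceps 3.

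The muscles were compared last, in fits without a term for the mouse. Between WT gastrocnemius and WT quadriceps 0 of 88 members passed in edgeR (3 at unadjusted p under 0.05, 0 in DESeq2 and limma voom), beside 0.297% of 16167 genes. The median was -0.0711 (10 positive, 78 negative), or -0.0554 (16 positive, 72 negative) with library totals, and -0.00155 (43 positive, 45 negative) without WT mouse 1. The test of whether the HSA-LR effect differed between muscles called 0 members and 0.0% of all genes in edgeR (0 members at unadjusted p under 0.05), and that of the treatment effect likewise 0 members and 0.0% of genes (2 members at unadjusted p under 0.05). DESeq2 and limma voom called 0 members in both. The 6 calls in quadriceps against 4 in gastrocnemius therefore do not show that the muscles differ, nor that they are alike.

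Genes that serve these complexes without being part of them were followed as 6 lists chosen by function. Among 43 tested assembly factors, which build the complexes and include Sdhaf2, 3 were higher and 2 lower in HSA-LR gastrocnemius, and 1 higher and 7 lower in quadriceps, where 15.5% and 20.3% of all genes were called. These shares of all genes, and 10% and 13.8% after treatment, are the background for each of the lists, and no list was tested against it. After treatment 2 rose and 0 fell in gastrocnemius, and 5 rose and 1 fell in quadriceps. The list's median log2 fold change was 0.0119 and -0.0572 in HSA-LR gastrocnemius and quadriceps and 0.0657 and 0.0324 after treatment, where that of all genes lay between -0.01 and 0.00532. Cox11, which delivers copper to complex IV, fell by 0.28 in gastrocnemius (edgeR adjusted p = 0.0579) and by 0.37 in quadriceps (0.0627), and rose with treatment by 0.31 (0.0597) and 0.41 (0.0644). Taco1, a translational activator of mt-Co1, fell by 0.48 in HSA-LR quadriceps (adjusted p = 0.0322) and rose by 0.48 with treatment (0.0511). Lyrm7, a complex III assembly factor, fell by 0.51 (adjusted p = 0.0308) and rose by 0.55 (0.0399). Ndufaf5, which assembles complex I, fell by 0.54 in gastrocnemius (adjusted p = 0.017) and by 0.36 in quadriceps (0.0824).

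Among 14 tested genes of electron carriers, 1 was lower in HSA-LR gastrocnemius and 3 were lower in quadriceps, and none was higher. After treatment 1 rose in gastrocnemius and 3 rose in quadriceps, again with none the other way. The median was -0.0867 and -0.198 in HSA-LR and 0.0887 and 0.125 after treatment. The 3 were genes of coenzyme Q, which carries electrons from complexes I and II to complex III. Coq8a, needed for its synthesis, fell by 0.99 (edgeR adjusted p = 0.00374) and rose by 1.15 with treatment (0.00464). Coq10a, a coenzyme Q binding protein, fell by 0.49 (adjusted p = 0.0553) and rose by 0.55 (0.0575), and Coq5, a methyltransferase of its synthesis, fell by 0.33 (adjusted p = 0.0457) and rose by 0.37 (0.0487). Coq10a was also the one carrier gene called in gastrocnemius, lower by 0.40 in HSA-LR (adjusted p = 0.0899) and higher by 0.45 with treatment (0.0835).

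The other lists had fewer calls. Of 21 tested genes of mitochondrial DNA expression, 1 was higher and 1 lower in HSA-LR gastrocnemius, and 1 higher and 3 lower in quadriceps, while treatment gave 0 calls in gastrocnemius in edgeR (1 gene at unadjusted p under 0.05) and 1 in each direction in quadriceps. Polrmt, the mitochondrial RNA polymerase, fell by 0.22 (edgeR adjusted p = 0.0791) and Tfb2m, its transcription factor, by 0.25 (0.0595) in quadriceps. Of 10 regulators, 1 was called in HSA-LR gastrocnemius and 0 in quadriceps in edgeR (2 at unadjusted p under 0.05), and treatment gave 1 call in each direction in both muscles. Ppargc1b, a coactivator of mitochondrial genes, rose by 0.99 (adjusted p = 0.0426) in gastrocnemius and fell with treatment by 1.36 (0.0227), and by 0.96 in quadriceps (0.0578). Its relative Ppargc1a rose by 0.68 with treatment in quadriceps (adjusted p = 0.0979).

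Of 13 genes of the citric acid cycle, 0 were called in gastrocnemius in edgeR in either comparison (0 at unadjusted p under 0.05) and 1, Ogdh of the oxoglutarate dehydrogenase, in quadriceps, which fell by 0.36 in HSA-LR (adjusted p = 0.0377) and rose by 0.41 with treatment (0.0405). Of 9 genes of exchange and leak across the mitochondrial membranes, Vdac3, an outer membrane channel, fell in HSA-LR gastrocnemius (-0.33, adjusted p = 0.0404) and quadriceps (-0.30, adjusted p = 0.054), and rose with treatment in gastrocnemius (0.475, adjusted p = 0.0188). Ucp2, abundant in macrophages, rose in HSA-LR quadriceps by 1.40 (adjusted p = 0.0193) and fell by 1.52 with treatment (0.0257). Macrophage markers summed to 26.5 to 43.6 normalized CPM in WT quadriceps, 55 to 68 in HSA-LR and 27.1 to 38.6 in treated mice, and their part in the Ucp2 difference was not tested. Between treated and WT mice 0 genes of these lists were called in edgeR in either muscle, with at most 3 of a list at unadjusted p under 0.05.

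Use of single exon bins was examined because the repeat RNA binds splicing factors of the MBNL family. The repeat RNA is known to hold them in nuclear foci. A bin is a stretch of exon cut at every annotated exon edge, and its change was tested relative to its own gene. In HSA-LR against WT 10 of 882 member bins passed in gastrocnemius (1.13%, 2 higher, 8 lower), against 0.807% of all 172719 bins tested, and 3 of 879 in quadriceps (0.341%, 1 higher, 2 lower), against 0.284%. After treatment 5 bins rose in gastrocnemius (0.567%), against 0.305% of all bins, and 7 in quadriceps (0.796%), against 0.168%. Of the 17 different bins with an annotated position, 11 lie in a retained intron, 3 in another noncoding transcript and 3 in coding transcripts alone. Bins of 1 gene share its reads and are not independent.

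Atp5f1, subunit b of the complex V stalk, had the largest change among the called bins. Bin 007 lies in a retained intron at GRCm38 chr3:105953827-105954017, minus strand. Its sequence is shown in the sense of the gene, with each word NGCN whose first and last base are pyrimidines, the core that MBNL proteins are known to bind, in capitals (on the strand of the gene only).
Atp5f1 bin 007: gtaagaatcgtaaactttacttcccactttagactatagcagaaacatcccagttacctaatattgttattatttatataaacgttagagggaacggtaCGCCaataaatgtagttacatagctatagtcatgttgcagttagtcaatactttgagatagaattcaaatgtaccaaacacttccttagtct
The bin held 1 such word, which is 0.524 per 100 bases, beside a median of 1.39 over 182 noncoding bins of the members.

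Atp5f1 bin 007 held 0.232%, 0.299% and 0.327% of the gene's counts in WT quadriceps, 0.0517%, 0.065% and 0.0578% in HSA-LR, and 0.0583%, 0.0578% and 0.0605% in treated mice. Every WT mouse stood far above every mouse of both HSA-LR groups. The change in HSA-LR was -2.31 (edgeR adjusted p = 9.78e-15), called without any single mouse, while treated and HSA-LR mice differed by 0.02 (adjusted p = 1). In gastrocnemius the WT shares of 0.0546% to 0.108% overlapped those of HSA-LR, 0.0435% to 0.258% (0.715, adjusted p = 0.694).

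**Figure D5:**
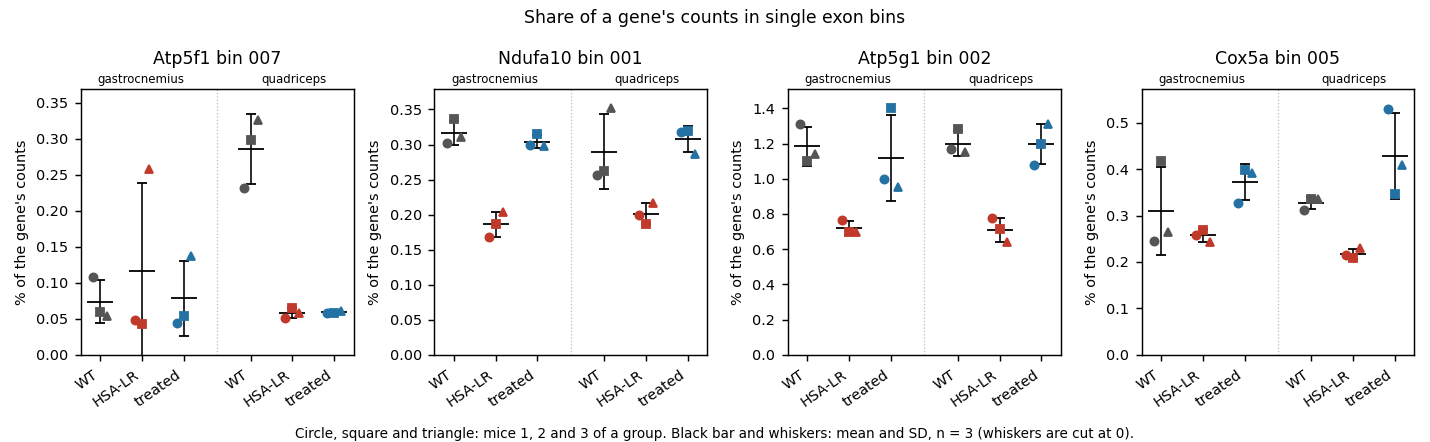
Share of the gene's counts (y axis, percent) in Atp5f1 bin 007, Ndufa10 bin 001, Atp5g1 bin 002 and Cox5a bin 005 in every library, by group and muscle. Circles, squares and triangles are mice 1, 2 and 3, and bars with whiskers are mean ± SD (n = 3, whiskers cut at 0). WT quadriceps is high for Atp5f1 bin 007, and HSA-LR lies below WT for Ndufa10 bin 001 and Atp5g1 bin 002 in both muscles. For Ndufa10 bin 001 and Atp5g1 bin 002 that difference passed the test in gastrocnemius alone.

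A pair of bins in untranslated regions of coding transcripts were also lower in HSA-LR gastrocnemius. Ndufa10 bin 001 (chr1:92439010-92439278), at the end of a complex I accessory gene, held 0.302%, 0.336% and 0.311% of counts in WT, 0.168%, 0.186% and 0.204% in HSA-LR and 0.3%, 0.315% and 0.298% in treated mice (-0.77 against WT, edgeR adjusted p = 0.0457). The call was lost in 5 of the 9 analyses without 1 mouse (adjusted p = 0.119 to 0.446). Treated and HSA-LR gastrocnemius differed by 0.705 in this bin, which did not pass (adjusted p = 0.226). The quadriceps difference of -0.535 between HSA-LR and WT did not pass either. Atp5g1 bin 002 (chr11:96068867-96072986) was chosen for naming after its values were seen. It held 1.31%, 1.1% and 1.14% in WT gastrocnemius, 0.766%, 0.697% and 0.697% in HSA-LR, and 1%, 1.4% and 0.954% in treated mice. HSA-LR lay below both other groups (-0.70 against WT, adjusted p = 0.0568). In quadriceps it held 1.17%, 1.28% and 1.15% in WT, 0.776%, 0.712% and 0.64% in HSA-LR, and 1.08%, 1.2% and 1.31% after treatment, also without overlap, but the difference did not pass (-0.76, adjusted p = 0.139).

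Several other called bins rested on few reads or on single libraries. Uqcrb bin 002 fell by 1.26 in HSA-LR gastrocnemius (edgeR adjusted p = 0.00349) through 277 counts in WT mouse 1, and without that mouse the difference was -0.52 (adjusted p = 1). It was also lost without HSA-LR mouse 3 (0.121). Uqcrc1 bin 021 fell by 1.04 (adjusted p = 0.0293), and was not called without WT mouse 2 (-0.40) or HSA-LR mouse 1 or 3 (adjusted p = 0.197 to 1 over the 3). Atp5j bin 027, at 4 to 39 counts in gastrocnemius, fell by 1.80 in HSA-LR (adjusted p = 0.00623) and rose by 1.78 with treatment (0.0174). The first call was lost without WT mouse 3 or HSA-LR mouse 1 or 2, and the second without HSA-LR mouse 1 or 2 or treated mouse 1. Atp5b bin 025, of 27 bases, rose by 1.48 with treatment in gastrocnemius (adjusted p = 1.08e-05), without loss in any analysis that left out 1 mouse. It held 37 to 55 counts in HSA-LR and 89 to 142 in treated mice. HSA-LR gastrocnemius was not called against WT in this bin (-0.181), while treated gastrocnemius stood above WT by 1.3 (adjusted p = 0.000572). In quadriceps it was not called with treatment (-0.000539).

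In quadriceps Ndufs1 bin 036 rose by 0.997 in HSA-LR (edgeR adjusted p = 0.0893), a call lost in 8 of 9 analyses without 1 mouse (adjusted p = 0.145 to 0.635). Cox5a bin 005, a retained intron of 1168 bases in the gene of a complex IV subunit, held 0.312%, 0.335% and 0.335% of counts in WT, 0.214%, 0.208% and 0.23% in HSA-LR, and 0.529%, 0.346% and 0.408% in treated mice. HSA-LR lay below both other groups. The bin rose by 0.97 with treatment (adjusted p = 0.0192), a call lost without HSA-LR mouse 1 or 2 or treated mouse 1 (0.19 to 1). Uqcrc2 bin 024 rose by 1.80 (adjusted p = 0.0212), with 62, 39 and 12 counts in treated mice against 7 to 14 in HSA-LR. That call was lost without HSA-LR mouse 1 or 2 or treated mouse 1 or 2 (0.117 to 1).

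One known alternative exon of the set was also followed. The 37-base exon of Atp5c1, the gamma subunit of complex V (bin 003, chr2:10056770-10056806), is skipped in muscle and kept in other tissues. It held 0.0928% ± 0.0106 of the gene's counts in WT gastrocnemius (SD, n = 3), 0.0814% ± 0.00247 in HSA-LR and 0.0894% ± 0.00916 in treated mice. In quadriceps it held 0.143% ± 0.0663, 0.145% ± 0.0867 and 0.0794% ± 0.0151. It was not called in any comparison, and the nearest value was -0.82 in quadriceps for treated against HSA-LR mice (edgeR adjusted p = 0.67).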

How the data were processed

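Poly(A) RNA of gastrocnemius and quadriceps was sequenced from strand-marked libraries. The authors deposited raw counts of reads per exon bin for each library, in the format used for DEXSeq; the processing notes name CASAVA, HISAT, featureCounts 1.5.0 and GRCm38. Bins were summed to 46725 genes. Lines of no gene (2.815% to 4.139% of counts) were left out, and 12 gene entries that share exon bases with another gene on their strand had no counts to analyse here; Ndufb9 also shares such bases (with Gm49356) and was kept.

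Genes were tested with edgeR 4.0.16 (R 4.3.3): filterByExpr with a minimum count of 10 and a minimum total of 15, TMM factors, a quasi-likelihood fit of the 9 libraries of a muscle (all 18 for comparisons of muscles) and Benjamini-Hochberg adjustment over all genes, with calls at adjusted p under 0.1. Bins were tested with diffSpliceDGE. Normalized CPM used TMM factors of all 18 libraries. Near-identical copies were searched at 95% identity over 150 bases or more. Results of 1 gene are not reported here. The tests of genes and bins were checked on simulated data.

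Groups came from the labels, and 3 mice a group is the only replication. The 2 muscles of a mouse carry its number, and departures from the means of their groups went together at r = 0.0645 to 0.5108 (9 pairs). Muscles of a group with different numbers gave r = -0.3753 to 0.2189 (18 pairs), an overlapping range. The medians were 0.2146 for the same number and -0.09025 for different numbers. Muscles with 1 number were taken to come from 1 mouse by their numbers, and r alone does not settle it. The reported tests between muscles and of interactions had no term for the mouse and so did not use this pairing. As an alternative, a mouse block changed no call. The genes named are the mitochondrial members, isoform pairs, up to 4 called members per direction and comparison, the 3 of smallest p for treated against WT mice, up to 5 called bins per comparison and the alternative exon of Atp5c1. The members, lists and marker genes were chosen with earlier results of these data known. Alternatives were DESeq2 1.42.0, limma voom (limma 3.58.1), other filters, normalizations and thresholds, a replicate block and each mouse left out, and, added after seeing the data, library totals without TMM, copies added and 3 quadriceps libraries left out.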

Additional observations from a re-analysis of the deposited data

How the results depend on the processing

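Limits were the 3 mice per group, the scaling and the 3 quadriceps libraries with brown adipocyte markers. Alternatives were run for the members and their bins and not for the other pathway genes. No call of a named member changed under limma voom for genes, TMM from nuclear genes alone, or at least 10 counts in every library, nor, among alternatives added after seeing the data, with copies added. Replicate numbers shared across groups did not pair the mice (r = -0.2311 to 0.255 over 18 pairs). The replicate block gave 1 and 0 members called for treated against HSA-LR in gastrocnemius and quadriceps and 6 bins for HSA-LR against WT in gastrocnemius. With only the groups compared in the fit, 8 members (3 higher, 5 lower) were called in HSA-LR gastrocnemius and 1 after treatment in each muscle. DESeq2 called 4 members after treatment in each muscle, 12 in HSA-LR quadriceps, all lower, and 1 in treated against WT quadriceps. Upper-quartile scaling gave 1 member after treatment in each muscle, and at least 1 count in any library gave 1 and 0. At adjusted p under 0.05 there were 1 and 0 after treatment, 3 in HSA-LR quadriceps and 5 bins in HSA-LR gastrocnemius. Limma diffSplice called 8 bins in HSA-LR quadriceps and 11 after treatment. The largest exon bin alone lost Ndufv3 after treatment in gastrocnemius (adjusted p = 0.133). TMM-scaled CPM set the nuclear sum of HSA-LR quadriceps at 0.909 times WT, against 0.986 in plain CPM.

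Of the alternatives added after seeing the data, library totals alone called 10 members after treatment in quadriceps, and leaving out the 3 libraries, which leaves 1 HSA-LR library, called 0 in HSA-LR and 0 after treatment, with Cox6a2 after treatment reversed to -0.0148 (adjusted p = 0.98). The block also ended the calls of mt-Nd3 in HSA-LR gastrocnemius (adjusted p = 0.106), Ndufv3 after treatment in gastrocnemius (0.129), Sdhaf2 and Ndufs8 in HSA-LR quadriceps (0.132 and 0.116), Sdha and Sdhaf2 after treatment in quadriceps (0.134 and 0.107) and Uqcrc1 bin 021 (0.199), and gave one for Cox6a2 in HSA-LR quadriceps (0.0618). It changed no other call of a named member or bin. Apart from fewer libraries in some of these fits, the cause of each change was not tested.

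Without 1 mouse at a time, HSA-LR gastrocnemius had 2 to 8 calls (2 without WT 2 or HSA-LR 1, 8 without treated 3) and quadriceps 1 to 15 (1 without WT 3 or HSA-LR 1, 3 without WT 1, 15 without HSA-LR 3). Treatment gave 0 to 2 in gastrocnemius (0 without HSA-LR 2) and 0 to 9 in quadriceps (0 without HSA-LR 1 or 2 or treated 1 or 2, 9 without HSA-LR 3). Treated against WT, the muscles and both interactions stayed at 0 to 0. Bins called ran from 4 to 14 and 1 to 4 in HSA-LR gastrocnemius and quadriceps, and from 4 to 11 and 2 to 8 after treatment; the highest gastrocnemius counts were without treated 3.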
